A study of Mus musculus with 6 samples.

Results

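The transcripts described here are those that the deposited table assigns to the class nonsense_mediated_decay, written NMD below. All rows with that class were taken, whatever their level, which gave 4648 of the 85882 transcripts in the table (5.41%). They belong to 3201 of 29559 genes (10.8%). Most of these host genes, 2239 of them, have a single NMD transcript, and Tmem234 has the most, 13. For 3063 host genes the table also lists protein_coding transcripts, against which the NMD transcripts were set, and 138 have none.

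Nonsense-mediated decay is a surveillance pathway that removes mRNAs on which a ribosome stops well upstream of the last exon junction. Exon junction complexes left on the RNA by splicing mark those junctions, and the helicase UPF1, with UPF2, UPF3 and the SMG proteins, starts the decay. Many splicing regulators use the pathway to limit their own level by splicing in a poison exon, a short exon that carries a stop codon. An annotated NMD transcript is a predicted substrate, and its measured level reflects both how much of it is made and how fast it is lost.

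RNA was sequenced from mouse primary chondrocytes, the cells that build cartilage, cultured without being induced to differentiate. In 3 libraries (cKO 1 to 3) the cells were Nf2f/f;Prx1-Cre, with both Nf2 alleles floxed and a Cre recombinase that the Prx1 promoter drives in limb bud mesenchyme. In 3 libraries (control 1 to 3) they were Nf2f/f, with the floxed alleles and no Cre. Every library thus carries floxed Nf2, and no library is wild type at Nf2 or carries Cre without floxed alleles. The age of the mice is not given in the sources used here, and the labels do not say whether replicates are different animals or cultures. The p-values therefore cover only the variation among these libraries, part of which may be technical.

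Nf2, which encodes the membrane-linked tumour suppressor merlin, summed to 17.5, 15.6 and 18.1 FPKM in cKO libraries, against 16.7, 16.6 and 14.1 FPKM in control libraries. FPKM is a level per length, in fragments scaled by transcript length and library total. Without values per exon, this sum does not check the deletion, and the groups rest on the labels. The single NMD transcript of Nf2 was barely detected, at 0, 0.155 and 0.200 FPKM in cKO libraries and 0.214, 0.109 and 0.039 FPKM in control libraries. All 10 chondrocyte markers, Col2a1 and Acan among them, were present in every library and passed as lower in cKO, with sums of 2332 to 2877 FPKM in cKO and 4972 to 6124 FPKM in control. Endothelial, neural and erythroid markers were too low to test, and 2 of 2 tested muscle markers were higher, with list sums of 8.79 to 11.0 FPKM in cKO and 4.42 to 5.81 FPKM in control. Of 2 epidermal markers tested Trp63 was higher and Krt10 did not pass, at 0.963 FPKM in cKO and 1.61 FPKM in control (log2 change -0.52, adjusted p = 0.057, without overlap), with list sums of 3.48 to 4.49 FPKM in cKO and 3.23 to 3.39 FPKM in control, and the 1 macrophage marker tested did not pass. Xist was at 0.029 FPKM in cKO 3 and 0.525 FPKM in control 2 but between 41.6 and 53.9 FPKM in the other 4 libraries. The Y-linked Ddx3y was at 29.8 FPKM in cKO 3 and 30.1 FPKM in control 2. It was at 0.660 and 4.12 FPKM in cKO 1 and 2, and 5.05 and 1.33 FPKM in control 1 and 3. Libraries of both groups thus differ in sex-linked RNA. The part of these differences in the NMD results was not tested.

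The sequences below show how an NMD transcript leaves the reading frame of its gene's most abundant protein_coding transcript that has an annotated stop codon. Each run starts with the last 24 bases that the pair share and ends, for the NMD transcript, with its stop codon in capitals. The bases were read from the GENCODE M21 transcripts on mm10, 5′ to 3′. Ppat and Alg3 are shown because they were the NMD transcripts that passed the transcript test, and Ftl1 and Lgals1 because they were the most abundant NMD transcripts and held the largest parts of the summed difference. Itgb1 is shown for its large change in summed NMD level.
Ppat NMD transcript: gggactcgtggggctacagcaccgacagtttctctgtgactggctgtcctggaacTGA
Ppat protein_coding transcript: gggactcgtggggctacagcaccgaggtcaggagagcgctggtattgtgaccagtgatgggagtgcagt
Alg3 NMD transcript: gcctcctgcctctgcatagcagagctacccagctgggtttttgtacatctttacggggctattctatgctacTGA
Alg3 protein_coding transcript: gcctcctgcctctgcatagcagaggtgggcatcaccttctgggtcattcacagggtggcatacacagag
Ftl1 NMD transcript: cgtgcactcttccaggatgtgcaggctTGA
Ftl1 protein_coding transcript: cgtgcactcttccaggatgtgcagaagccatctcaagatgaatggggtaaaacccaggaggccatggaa
Lgals1 NMD transcript: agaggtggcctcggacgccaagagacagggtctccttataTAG
Lgals1 protein_coding transcript: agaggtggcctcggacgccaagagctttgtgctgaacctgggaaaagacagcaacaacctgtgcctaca
Itgb1 NMD transcript: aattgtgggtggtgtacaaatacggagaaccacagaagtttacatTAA
Itgb1 protein_coding transcript: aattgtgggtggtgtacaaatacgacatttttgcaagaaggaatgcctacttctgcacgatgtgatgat
The Ppat NMD transcript (chr5:76913249-76951572, minus strand) has 12 exons, and its frame leaves the shared sequence at the start of exon 2, a 156-base exon with a TGA stop. Its open reading frame has 53 codons, against 517 in the protein_coding transcript. The Alg3 transcript (chr16:20605519-20610761, minus strand) leaves out 137 bases and reads into TGA in exon 2 of 8, after 69 codons in place of 438. In Ftl1 (chr7:45457945-45459839, minus strand) exon 3 of 4 begins early, and TGA starts after only 3 bases past the point where the sequences part. In Lgals1 (chr15:78926726-78930191, plus strand) 16 bases lie between that point and a TAG stop in a 103-base exon, so the frame has 35 codons in place of 135. In Itgb1 (chr8:128685757-128732617, plus strand) the transcript leaves out 223 bases and reaches TAA after 58 of 798 codons.

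NMD transcripts of 5 splicing regulators are shown next, since this family is the best known for poison exons.
Srsf3 NMD transcript: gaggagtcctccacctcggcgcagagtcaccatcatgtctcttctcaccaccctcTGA
Srsf7 NMD transcript: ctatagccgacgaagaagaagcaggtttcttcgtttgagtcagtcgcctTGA
Tra2b NMD transcript: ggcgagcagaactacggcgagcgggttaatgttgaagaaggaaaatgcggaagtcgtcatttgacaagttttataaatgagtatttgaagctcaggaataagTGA
Snrpb NMD transcript: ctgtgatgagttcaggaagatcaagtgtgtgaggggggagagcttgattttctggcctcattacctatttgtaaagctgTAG
Ptbp2 NMD transcript: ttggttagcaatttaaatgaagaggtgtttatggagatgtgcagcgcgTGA
Ptbp2 protein_coding transcript: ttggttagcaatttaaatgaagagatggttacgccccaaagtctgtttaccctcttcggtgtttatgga
In Srsf3 (chr17:29032632-29042897, plus strand) and Srsf7 (chr17:80200830-80207307, minus strand), both SR proteins, the stop lies in included exons of 456 and 460 bases. The Tra2b stop (chr16:22246462-22265926, minus strand) lies in exon 2 of 10, which has 276 bases, so only 38 of 288 codons are read. The Snrpb stop (chr2:130171787-130179403, minus strand), in a gene for a core spliceosomal protein, lies in a 124-base exon. Ptbp2 (chr3:119720320-119783234, minus strand) works the other way: the NMD transcript leaves out 34 bases of the protein_coding transcript, which shifts the frame into TGA after 356 of 531 codons.

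Across the class, 4624 of the 4648 members were found in the annotation and 4617 had the same coordinates there. The stop codon lay inside the exon sequence of a protein_coding transcript of the gene, but was not that transcript's stop, in 2438 members (52.5%). This is the arrangement of Alg3, Itgb1 and Ptbp2. It lay in sequence outside every protein_coding exon in 1801 (38.7%), as in Ppat, Ftl1, Lgals1 and the SR proteins shown. In 309 (6.65%) it was the stop of a protein_coding transcript too, so the junctions after it set the member apart. A splice junction more than 50 bases after the stop, the distance usually taken to trigger decay, was present in 4586 members, and the median distance from stop to last junction was 344.5 bases.

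NMD transcripts were mostly rare. The median member had a mean of 0.106 FPKM, against 0.450 FPKM for protein_coding transcripts. A mean of at least 1 FPKM was reached by 739 members, of 10 FPKM by 64 and of 100 FPKM by 5. The 10 most abundant held 36.3% of the summed NMD level. Of the 4648 members, 1731 were above 0 in all 6 libraries, 434 were at 0 in all cKO libraries and 635 at 0 in all control libraries. The share of members at 0 was 28.7 to 31.0% in cKO libraries, against 35.1 to 36.0% in control libraries, and over all transcripts of the table it was 21.2 to 22.7% in cKO and 24.2 to 24.9% in control.

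The part of their genes' RNA that NMD transcripts held as a class was compared first. They summed to 6306, 6261 and 6328 FPKM in cKO libraries, against 5402, 5005 and 5420 FPKM in control libraries, so the groups did not overlap. As a share of all FPKM of their host genes this was 7.97, 7.83 and 7.72% in cKO libraries and 7.35, 6.83 and 7.17% in control libraries. The difference was 0.72 percentage points, and the exact 2-sided permutation test gave p = 0.1, the smallest that 3 against 3 libraries allow. In a bulk sample, fewer cells of a type and less RNA per cell cannot be told apart, and this holds for every level given here.

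The difference was concentrated in a few genes. Of the 1022 FPKM by which the mean NMD sum was higher in cKO, Ftl1, the ferritin light chain that stores iron, made up 25.9%. Lgals1, the galactoside-binding lectin galectin-1, made up 23.6%, and Rpsa, a protein of the small ribosomal subunit, 16.4%. The Rpsa part was 6.68% without control 2, where its NMD transcript was at 0.459 FPKM, while those of Ftl1 and Lgals1 stayed between 22.0 and 30.3% with any 1 library left out, a check added after the data were seen. Without Ftl1 the share difference was 0.50 points and the groups stayed apart. Without Ftl1 and Lgals1 it was 0.25 points, the groups overlapped, and the exact permutation p was 0.2. These genes were left out as the largest parts in these same libraries, so a smaller difference followed from the choice. Parts of opposite sign stayed in, the largest being those of NMD transcripts of Lars2 (-7.03%) and Nedd4 (-3.25%). With each host gene of at least 1 FPKM weighted equally, the share was 8.15, 8.41 and 8.18% in cKO libraries, against 8.01, 7.93 and 8.11% in control libraries.

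**Figure D1:**
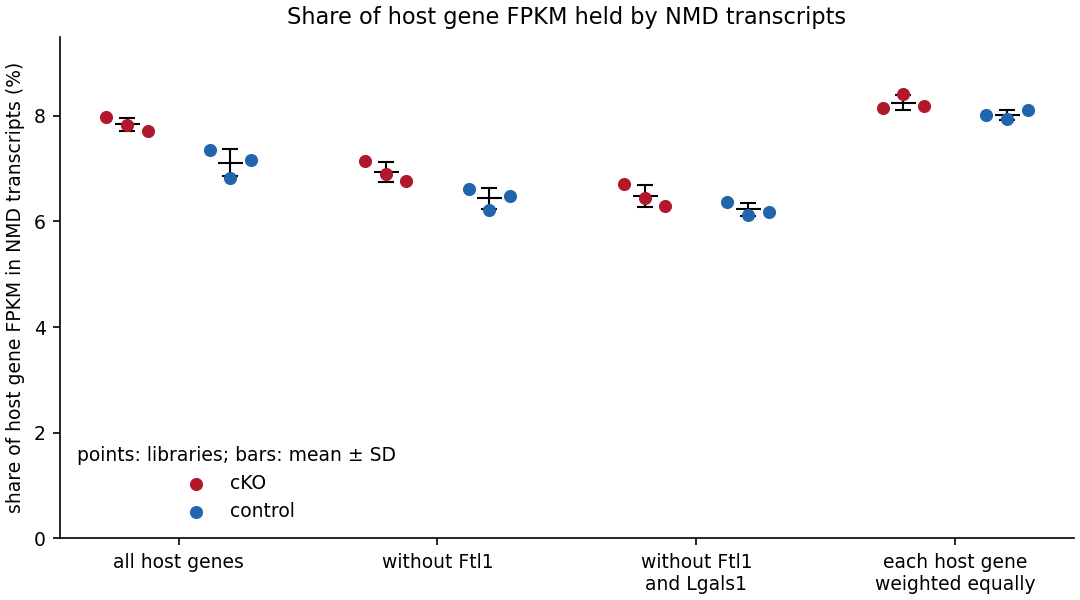
Share of host gene FPKM held by NMD transcripts (y axis, percent) in each library, cKO left of control, for all host genes, without Ftl1, without Ftl1 and Lgals1, and as the mean over host genes of at least 1 FPKM weighted equally. Points are libraries and bars the mean ± SD (n = 3 each); the groups are apart in each set but the one without Ftl1 and Lgals1.

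The most abundant NMD transcript was that of Ftl1, at 818, 926 and 972 FPKM in cKO libraries, against 669, 581 and 671 FPKM in control libraries. All cKO libraries lay above all control libraries. It held 34.7, 34.9 and 34.7% of the gene's FPKM in cKO and 32.4, 28.2 and 30.5% in control. The protein_coding transcripts of Ftl1 were at 1528, 1713 and 1814 FPKM in cKO and 1384, 1471 and 1520 FPKM in control.

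The Lgals1 NMD transcript was at 441, 445 and 465 FPKM in cKO libraries, against 235, 116 and 275 FPKM in control libraries. Its protein_coding sum was at 1031, 1012 and 1079 FPKM in cKO and 680, 758 and 754 FPKM in control, again without overlap. That sum passed the test (log2 change 0.51 ± 0.07 SE, limma adjusted p = 0.019), while the NMD transcript alone did not (1.20 ± 0.32 SE, adjusted p = 0.179). The ratio of NMD to protein_coding level was 0.69 higher on the log2 scale in cKO and did not pass either (adjusted p = 0.586).

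Next, each transcript was tested. Changes are cKO over control on the scale of log2(FPKM + 0.5), where changes of low transcripts are understated, and p-values are from limma, adjusted over all 27761 transcripts of any class with a mean of at least 0.5 FPKM. Of the 4648 members 1149 reached that level and 3499 did not. Among these, 2 NMD transcripts were higher in cKO, where 0.187% of all tested transcripts were higher, and none was lower, where 0.421% of all were. At an unadjusted p under 0.05, 75 NMD transcripts (6.53%) were higher and 41 (3.57%) lower, against 8.99% and 5.56% of all transcripts tested. Groups that did not overlap were found for 95 NMD transcripts higher in cKO (8.27%) and 54 lower (4.7%), against 13.3% and 9.36% of all. The count of 2 became 4 without cKO 2 or without control 1, and 1 without the filter or at a mean of at least 1 FPKM. The median log2 change was 0.07 over tested NMD transcripts, 0.06 over protein_coding and -0.09 over retained_intron transcripts.

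**Figure D2:**
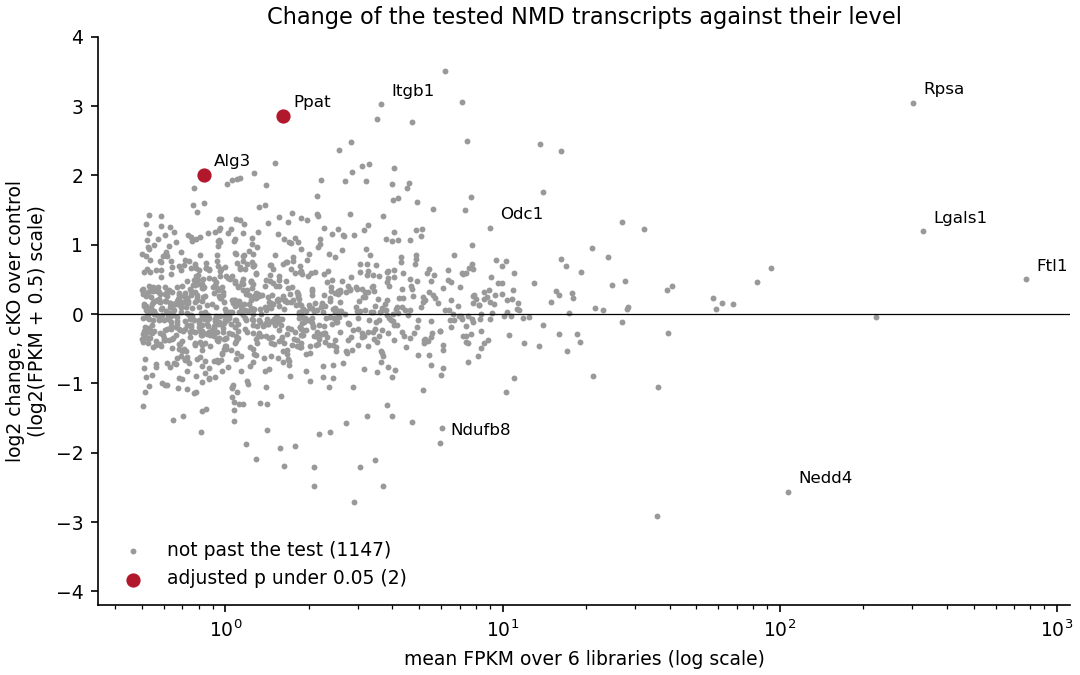
Log2 change in cKO over control (y axis, log2(FPKM + 0.5) scale) against the mean FPKM over 6 libraries (x axis, log scale) for the 1149 tested NMD transcripts, each a point. The 2 transcripts past the adjusted threshold of 0.05, of Ppat and Alg3, are large and red, and grey points such as Itgb1 and Rpsa have changes as large without passing.

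Ppat, which encodes the enzyme that commits the cell to purine synthesis, had the clearest change. Its NMD transcript, the exon 2 form shown above, was at 3.82, 2.98 and 2.82 FPKM in cKO libraries, against 0, 0 and 0.021 FPKM in control libraries. It was thus present in every cKO library and close to absent from control libraries. The log2 change was 2.86 ± 0.18 (SE, adjusted p = 0.0090). The protein_coding sum of Ppat was 7.02, 9.08 and 10.6 FPKM in cKO and 9.98, 9.67 and 10.2 FPKM in control, with overlapping groups (log2 change -0.17 ± 0.14 SE, adjusted p = 0.536). The NMD transcript held 35.3, 22.6 and 21.1% of the gene's FPKM in cKO libraries, against 0, 0 and 0.18% in control libraries.

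Alg3 encodes a mannosyltransferase that extends the sugar precursor of N-linked glycans in the endoplasmic reticulum. Its NMD transcript ENSMUST00000231904 was at 2.05, 1.56 and 1.32 FPKM in cKO libraries and 0.084, 0 and 0 FPKM in control libraries. The groups did not overlap and the log2 change was 2.01 ± 0.21 (SE, adjusted p = 0.027). Alg3 has 7 NMD transcripts, and their sum did not separate the groups, at 3.36, 14.4 and 7.34 FPKM in cKO against 12.7, 1.06 and 0.418 FPKM in control. Its protein_coding sum was 0.078 FPKM in cKO 2 and 0 in control 1 but at least 8.01 FPKM elsewhere, which left the gene's NMD share between 3.45 and 100% over the 6 libraries. The Alg3 call was lost when any 1 library was left out (adjusted p between 0.064 and 0.096).

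Transcripts of a gene share most of their sequence, so the NMD transcripts of each gene were also summed, in a test added after the data were seen. All 19369 sums of a gene and a class with a mean of at least 0.5 FPKM were fitted together. Of 1030 NMD sums 8 were higher and 3 lower in cKO, against 2.2% of all sums higher and 2.0% lower, and 0.777% and 0.291% of NMD sums. Of the protein_coding sums of host genes 2.53% were higher and 1.25% lower. The genes other than Ppat and those chosen by rule are named here after their values were seen. In Ppat, Itgb1, Ndufb8, Tgfbi, Gorab and Ftl1 the sum holds 1 NMD transcript, so the same values were tested again among fewer rows. In the transcript test the adjusted p was 0.062 for Itgb1, 0.066 for Ndufb8, 0.059 for Tgfbi, 0.139 for Gorab and 0.096 for Ftl1. For the main NMD transcript of the others it was 0.115 for Odc1, 0.075 for Fastkd3, 0.071 for Dpagt1 and 0.087 for Angel2. In Odc1, Fastkd3 and Dpagt1 that transcript held nearly all of the sum. For the NMD transcripts of Zfp207 it was 0.187 and 0.237. Of these genes only Ppat had passed there.

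Itgb1, the integrin subunit through which chondrocytes hold on to collagen matrix, had the largest log2 change among the 8 higher sums on the log2(FPKM + 0.5) scale. Its NMD transcript was at 10.4, 5.87 and 4.34 FPKM in cKO libraries, against 0, 0.532 and 0.704 FPKM in control libraries (log2 change of the sum 3.03 ± 0.42 SE, adjusted p = 0.018). It stayed a small part of the gene, 3.47, 1.88 and 1.47% in cKO and 0, 0.198 and 0.254% in control, beside protein_coding Itgb1 at 295 ± 9.31 FPKM in cKO and 273 ± 4.54 FPKM in control (SD, n = 3 each).

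Odc1, the first enzyme of polyamine synthesis, had summed NMD levels of 9.81, 13.7 and 14.9 FPKM in cKO libraries, against 4.21, 7.15 and 4.17 FPKM in control libraries. Both its NMD sum (log2 change 1.25 ± 0.24 SE, adjusted p = 0.041) and its protein_coding sum (0.44 ± 0.07 SE, adjusted p = 0.028) rose. The protein_coding sum was 69.6 ± 3.51 FPKM in cKO and 51.3 ± 3.52 FPKM in control. NMD transcripts held 15.3 ± 2.31% of Odc1 in cKO and 8.99 ± 2.60% in control (SD, n = 3 each).

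The other rises were in Fastkd3, of a family that binds mitochondrial RNA, Angel2, an RNA end-processing enzyme, Dpagt1, which starts the N-glycan precursor, Gorab, a Golgi protein, and Ftl1. Fastkd3 NMD transcripts summed to 1.62 ± 0.433 FPKM in cKO and 0.312 ± 0.0927 FPKM in control, and made up 28.9 ± 8.89% of the gene in cKO against 5.94 ± 2.05% in control. Those of Dpagt1 summed to 6.46 ± 0.604 FPKM in cKO and 3.35 ± 0.397 FPKM in control. Those of Angel2 and Gorab stayed under 2 FPKM in every library. The protein_coding sums of Fastkd3, Angel2, Dpagt1, Gorab and Ftl1 did not pass the test (adjusted p from 0.092 to 0.953).

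The 3 falls were in Ndufb8, Zfp207 and Tgfbi. Ndufb8 encodes a subunit of respiratory complex I, and its NMD transcript was at 1.84, 1.90 and 3.00 FPKM in cKO libraries, against 8.66, 6.81 and 13.5 FPKM in control libraries (log2 change -1.86 ± 0.27 SE, adjusted p = 0.021). It held 4.69, 4.75 and 6.52% of the gene in cKO and 22.1, 16.4 and 32.6% in control, while the protein_coding sum was 39.0 ± 3.20 FPKM in cKO and 30.4 ± 3.58 FPKM in control (adjusted p = 0.105). Zfp207, a zinc finger protein of the mitotic spindle, had NMD sums of 10.1 ± 0.228 FPKM in cKO and 14.7 ± 1.59 FPKM in control (log2 change -0.52, adjusted p = 0.035), beside a protein_coding sum of 69.6 ± 8.06 FPKM in cKO and 59.7 ± 2.11 FPKM in control (adjusted p = 0.223). In Tgfbi, a secreted matrix protein, both classes fell, the NMD transcript by 1.05 and the protein_coding sum by 1.19 on the log2 scale (adjusted p = 0.015 and 0.019), and the NMD share was 4.49 ± 0.854% in cKO and 4.6 ± 0.311% in control.

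**Figure D3:**
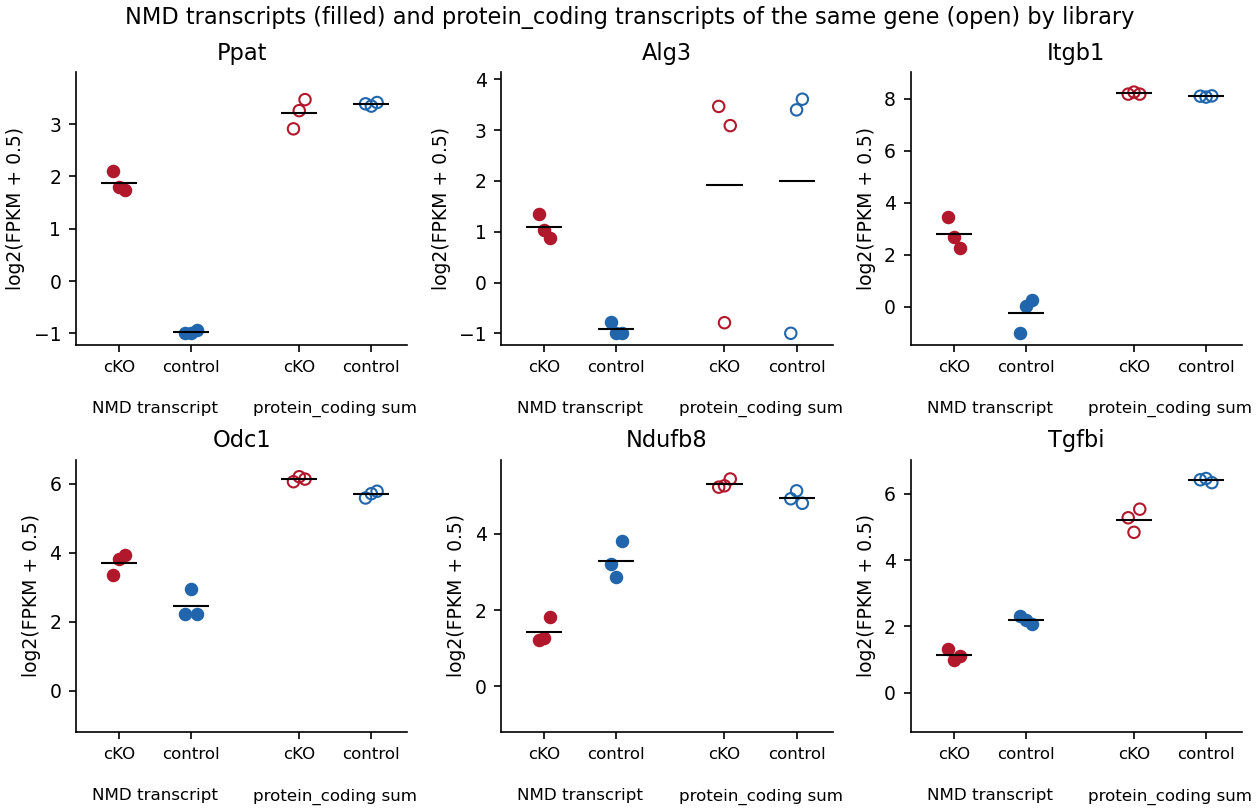
Levels by library (y axis, log2(FPKM + 0.5)) of an NMD transcript (filled) and of the summed protein_coding transcripts of the same gene (open) for 6 genes, cKO left of control, with lines at the mean of 3 libraries. NMD levels of Ppat, Itgb1 and Ndufb8 do not overlap between groups, and of these only Ppat passed the transcript test. Their protein_coding sums do not pass the test, though those of Itgb1 and Ndufb8 do not overlap either. The NMD to protein_coding ratios of Itgb1 and Ndufb8 did not pass (limma adjusted p = 0.242 for each). Both levels are lower in Tgfbi, and protein_coding Alg3 is near 0 in 1 library of each group.

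Of these 11 genes, Ppat alone kept its call in every alternative tried, with adjusted p between 0.0011 and 0.022. When 1 library was left out, between 2 and 4 of the 11 were still called, beside others, while the direction of all 11 held in each of these fits. Such a fit leaves 2 libraries in a group, and the part of the smaller number in the lost calls was not tested. The protein_coding calls of Odc1 (adjusted p up to 0.104), Tgfbi (up to 0.083) and Lgals1 (up to 0.082) were also lost on leaving out 4 or more of the 6 libraries in turn.

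The ratio of NMD to protein_coding level within a gene was then compared. It could be tested for 989 host genes, and Ppat was higher (log2 change 3.03 ± 0.28 SE, adjusted p = 0.043), where 0.0561% of all 5344 ratios of a class to protein_coding were higher. No NMD ratio was lower by limma, where 0.0% of all ratios were. At an unadjusted p under 0.05, 55 NMD ratios were higher and 53 lower, which is 5.56% and 5.36%, against 2.38% and 6.87% of all ratios. As a share of the gene's NMD plus protein_coding FPKM, not of all its FPKM, NMD was without overlap higher in cKO for 63 genes (6.37%). It was lower without overlap for 66 (6.67%). Of all class shares, each taken of that class plus protein_coding, 3.57% were higher and 12.7% lower. The median log2 ratio change was -0.01 for NMD, -0.19 for retained_intron and -0.13 for processed_transcript. The Ppat ratio call was lost when any 1 library was left out (adjusted p between 0.053 and 0.154) and with a pseudocount of 1 FPKM (over all its alternatives, 0.0088 to 0.502). The count of higher and lower ratios, over any gene, was 0 without cKO 1, 2 without control 1 and 3 without control 3.

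The next smallest p-values did not pass. Among higher ratios they were those of Angel2, Itgb1 and Epha4, a receptor for ephrins (adjusted p from 0.235 to 0.521). Epha4 was mostly NMD transcript in cKO, with a share of 78.4, 80.4 and 93.4%, against 48.5, 45.7 and 49.2% in control, at NMD sums of 1.77 ± 0.366 FPKM in cKO and 0.771 ± 0.157 FPKM in control. Its main NMD transcript shares the stop codon of a protein_coding transcript and has 2961 coding bases with the stop included. Among lower ratios they were Ndufb8, Arpc5l, Katnal2 and Luc7l (adjusted p from 0.242 to 0.521). Arpc5l, a subunit of the actin-branching Arp2/3 complex, had its NMD transcript at 0, 0 and 1.01 FPKM in cKO libraries and 3.57, 1.75 and 3.4 FPKM in control libraries. Luc7l, an RNA-binding protein of the U1 snRNP, held an NMD share of 5.86 ± 1.41% in cKO and 12.5 ± 1.07% in control (SD, n = 3 each).

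In the median tested host gene the NMD share was 11.6%. The 10th and 90th percentiles were 2.92 and 38.4%, and in 40 of the 989 the NMD transcripts held more than all other transcripts together. Besides Ftl1 and Lgals1, the 10 most abundant NMD transcripts were those of Rpsa, Rpl13a, Rps13 and Rps9, which are ribosomal proteins, of Nedd4, a ubiquitin ligase, of Anxa1, a phospholipid-binding annexin, and of Ddx5 and Hnrnpa1, which act in splicing. Those of Rpl13a and Rps13 overlapped between groups, with 243, 178 and 240 FPKM in cKO against 230, 236 and 210 FPKM in control for Rpl13a, and 61.1, 62.7 and 71.6 FPKM in cKO against 55.1, 62.0 and 57.1 FPKM in control for Rps13. The 4 NMD transcripts of Rpl13a together held 38.3, 30.6 and 35.9% of the gene in cKO and 39.7, 45.4 and 40.9% in control, without overlap (ratio adjusted p = 0.531). Its protein_coding sum was 412 ± 25.6 FPKM in cKO and 322 ± 8.09 FPKM in control (SD, n = 3 each, adjusted p = 0.039). Ddx5, an RNA helicase, had 101, 82.9 and 103 FPKM in cKO libraries and 77.9, 78.3 and 53.0 FPKM in control libraries, without overlap but not past the test (adjusted p = 0.316). Ferritin and ribosomal protein genes have near-identical pseudogene copies, and how reads shared with them were assigned is not given in the sources used here.

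Several abundant NMD transcripts were near 0 in some libraries and high in others of the same group. The Rpsa transcript was at 365, 378 and 417 FPKM in cKO libraries but at 290, 0.459 and 364 FPKM in control libraries. In control 2, where it was nearly absent, protein_coding Rpsa was highest, at 537 FPKM. The Nedd4 transcript was at 138, 133 and 0 FPKM in cKO libraries and 126, 124 and 121 FPKM in control libraries, and in cKO 3 protein_coding Nedd4 was at 303 FPKM, above every other library. Anxa1 swung in both groups, with 254, 22.9 and 3.24 FPKM in cKO and 7.13, 267 and 2.26 FPKM in control. That of Lars2, the mitochondrial leucyl-tRNA synthetase, was at 216 FPKM in control 1 and at 0 in the 5 other libraries, and is named here after its values were seen.

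Such jumps were more frequent among NMD transcripts than in 2 other classes. Among transcripts with a mean of at least 0.5 FPKM, 382 of 1149 NMD transcripts (33.2%) had a group in which the highest library, at 1 FPKM or more, was over 10 times the lowest. The same held for 12.2% of protein_coding and 4.38% of retained_intron transcripts. These were transcripts of all genes, not of host genes alone. The part of having several transcripts in a gene was therefore not tested. At 10 FPKM and above it was 11 of 64 NMD transcripts (17.2%) against 2.05% of protein_coding transcripts. The median within-group SD on the log2 scale was 0.57 for NMD transcripts and 0.25 for protein_coding transcripts.

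**Figure D4:**
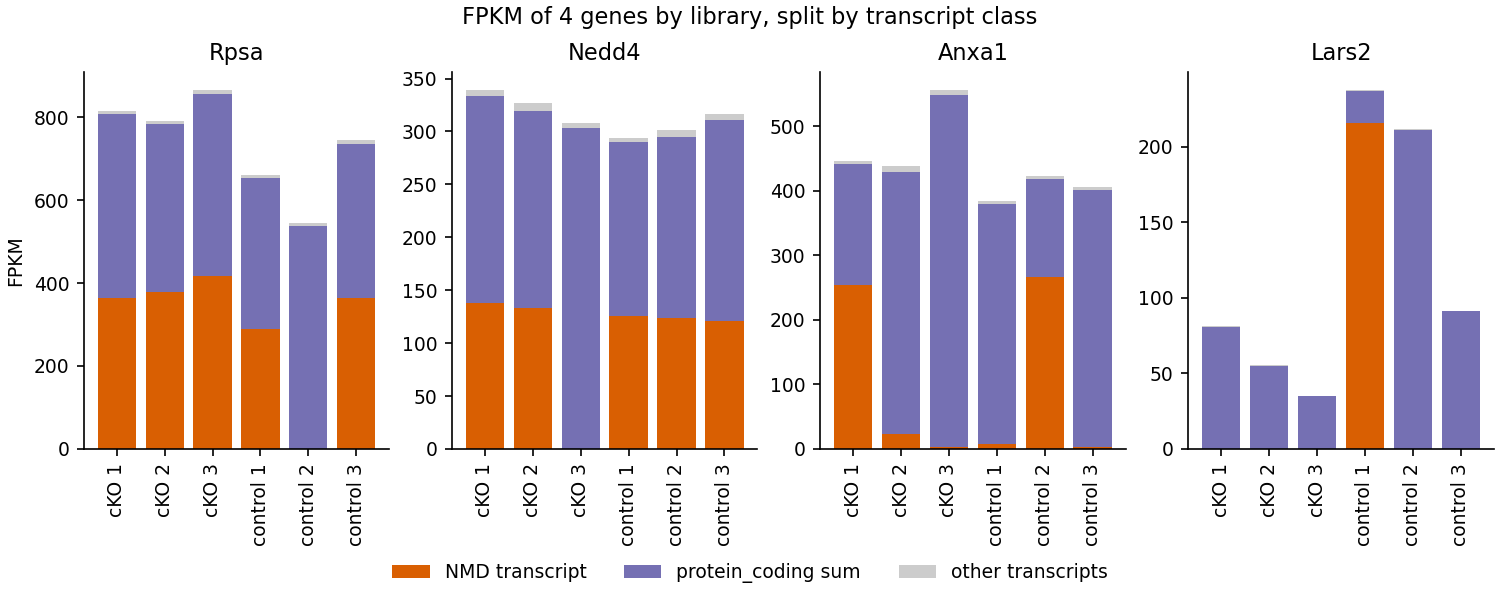
Summed FPKM (y axis) of Rpsa, Nedd4, Anxa1 and Lars2 in each library, split into the NMD transcript, the protein_coding transcripts and all others, stacked. The NMD part is missing in control 2 for Rpsa and in cKO 3 for Nedd4 and present only in control 1 for Lars2, while the totals of Rpsa, Nedd4 and Anxa1 differ far less.

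Splicing regulators were taken as a list of 43 genes known for poison exons or related control, of which 34 have NMD transcripts, 80 in all. Of these, 47 were abundant enough to test and none passed (0 called by limma, 3 at an unadjusted p under 0.05), with 23 higher and 24 lower by point value and a median log2 change of -0.01. None of the 28 ratios tested passed, and 2 had an unadjusted p under 0.05. The list's NMD transcripts summed to 299, 252 and 421 FPKM in cKO libraries, against 264, 266 and 302 FPKM in control libraries, with overlap. The value of 421 FPKM in cKO 3 includes 82.0 FPKM from an NMD transcript of Rbm3, a cold-induced RNA-binding protein, that is listed at 0 in the 5 other libraries.

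The poison exon forms shown above were present in both groups. Srsf3 was at 4.85, 15.1 and 18.5 FPKM in cKO libraries and 7.08, 12.9 and 16.4 FPKM in control libraries, and Srsf7 at 12.2, 11.5 and 10.1 FPKM in cKO and 14.8, 13.3 and 5.97 FPKM in control. Both overlapped. Tra2b was at 4.13, 3.01 and 2.92 FPKM in cKO and 3.90, 3.97 and 4.07 FPKM in control, and Snrpb at 3.8, 6.08 and 5.58 FPKM in cKO and 3.61, 6.51 and 2.94 FPKM in control. The NMD transcript of Tra2a, the paralogue of Tra2b, was at 10.8, 8.93 and 10.6 FPKM in cKO and 14.3, 16.4 and 10.5 FPKM in control, and held 19.6, 16.7 and 18.1% of the gene in cKO and 28.7, 32.0 and 20.1% in control, a share without overlap (ratio adjusted p = 0.531).

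The exon-skipping form of Ptbp2, a regulator of neuronal splicing that PTBP1 is known to repress, was at 0.732, 0.499 and 1.19 FPKM in cKO libraries and 1.49, 2.08 and 1.40 FPKM in control libraries (log2 change -0.74 ± 0.26 SE, adjusted p = 0.278). Summed over all transcripts, Ptbp2 fell by 0.33 on the log2 scale (adjusted p = 0.024) and Ptbp1 rose by 0.44 (adjusted p = 0.014). Whether these changes are linked was not tested. Ptbp1 stood at 164 ± 14.9 FPKM in cKO and 121 ± 6.28 FPKM in control, and Ptbp2 at 10.5 ± 0.479 FPKM in cKO and 13.4 ± 0.566 FPKM in control (SD, n = 3 each). Their protein_coding sums alone did not pass the test. That of Ptbp1 was 118 ± 8.72 FPKM in cKO and 109 ± 6.13 FPKM in control (log2 change 0.12, adjusted p = 0.413). That of Ptbp2 differed by -0.20 on the log2 scale (adjusted p = 0.165). Of the 43 genes 1 was higher and 4 lower at the gene level, the others lower being Srsf11, Clk4 and Mbnl1, against 7.57% higher and 4.57% lower over all 14091 genes tested. Mbnl1 kept its call with any 1 library left out, and the other 4 lost theirs without control 1 or control 2, Ptbp2 also without cKO 2 or control 3 and Srsf11 without cKO 1. The adjusted p was then 0.053 to 0.092 for Ptbp1, Ptbp2 and Clk4, and at least 0.072 for Srsf11.

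**Figure D5:**
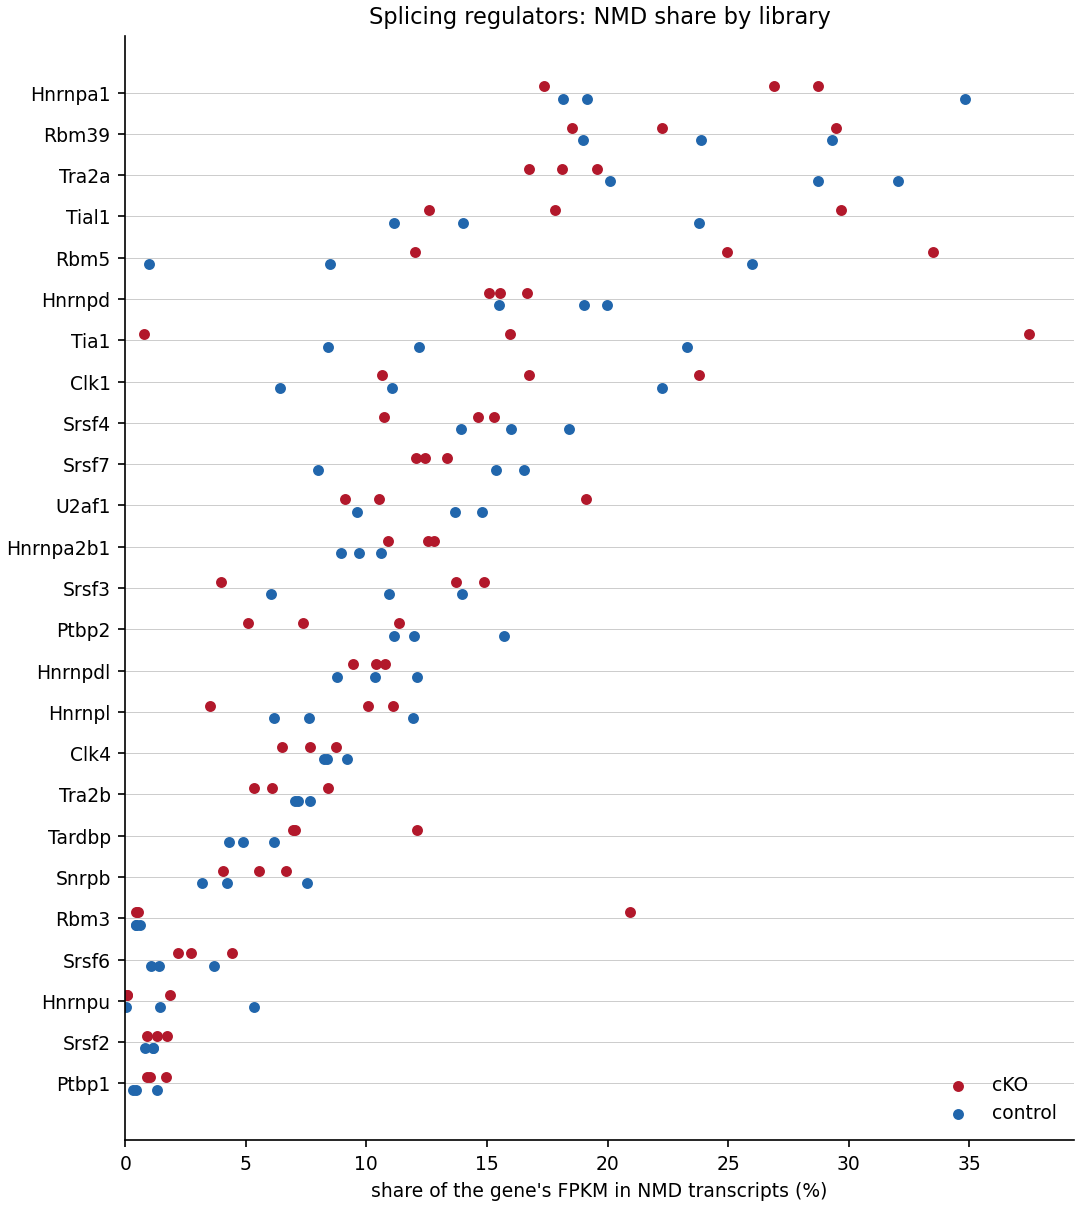
Share of each gene's FPKM held by NMD transcripts (x axis, percent) in cKO libraries (red, upper row) and control libraries (blue, lower row) for the 25 splicing regulators with an NMD transcript of at least 1 FPKM, ordered by mean share. The groups overlap for most genes; cKO lies below control without overlap for Tra2a, and above it for Hnrnpa2b1 and Tardbp.

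The genes that carry out the decay were expressed in both groups. None of 12 NMD core genes passed the gene test by limma (0 higher, 0 lower, 2 at an unadjusted p under 0.05), with a median log2 change of 0.03 beside 0.05 over all genes. For this and the gene lists below, the share of all genes at an unadjusted p under 0.05 was not computed. Those unadjusted counts therefore have no background to be read against. UPF1 is the helicase at the centre of the pathway, and its gene was at 13.0, 15.7 and 12.4 FPKM in cKO libraries, against 13.4, 11.8 and 13.7 FPKM in control libraries. Upf2, which bridges UPF1 to UPF3, was at 8.48 ± 0.693 FPKM in cKO and 8.67 ± 0.755 FPKM in control, Upf3a at 15.9 ± 0.955 FPKM in cKO and 14.4 ± 0.604 FPKM in control, and Upf3b at 9.55 ± 0.493 FPKM in cKO and 9.45 ± 0.825 FPKM in control (SD, n = 3 each).

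The kinase gene Smg1, whose product phosphorylates UPF1, was at 15.1 ± 2.84 FPKM in cKO and 14.7 ± 0.281 FPKM in control. Smg6, the endonuclease of the pathway, was at 4.53 ± 0.534 FPKM in cKO and 4.39 ± 0.109 FPKM in control. The adaptor Smg5, which recruits decay enzymes, was at 24.4 ± 2.52 FPKM in cKO and 20.8 ± 1.45 FPKM in control. Smg8 was at 8.70 ± 0.649 FPKM in cKO and 7.21 ± 0.493 FPKM in control, without overlap (adjusted p = 0.096), and Smg9, its partner in holding SMG1, at 7.48 ± 0.465 FPKM in cKO and 6.89 ± 0.290 FPKM in control. The point directions of Upf3b, Smg1 and Smg6 changed under another scaling.

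Of 9 genes of the exon junction complex and its partners 4 were higher and 0 lower by limma at an unadjusted p under 0.05. At the adjusted threshold 1 was higher and none lower, against 7.57% higher and 4.57% lower over all genes at that threshold. It was Sap18, part of a complex that regulates splicing at the junction, at 31.7, 42.4 and 37.6 FPKM in cKO libraries against 24, 25.1 and 26.3 FPKM in control libraries (log2 change 0.55 ± 0.10 SE, adjusted p = 0.014). The call was lost without control 1 or control 2 (over all alternatives adjusted p from 0.0059 to 0.064). Its near-identical copy Sap18b was at 58.1, 78.1 and 72.2 FPKM in cKO and 47.5, 45.9 and 52.7 FPKM in control, so the source of the reads is uncertain. The core subunits Eif4a3, Magoh and Rbm8a differed by 0.17, 0.16 and 0.21 on the log2 scale, without passing. None of 9 termination and decay genes passed (0 by limma, 3 at an unadjusted p under 0.05), among them Etf1, the release factor, at 79.6 ± 1.51 FPKM in cKO and 72.9 ± 1.97 FPKM in control.

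Genes known as natural targets of the pathway through upstream reading frames or non-coding exons were also compared, at the level of whole genes. Of 13, 1 was higher and 1 lower, which is near the 7.57% and 4.57% over all genes. Cdkn1a, a cell cycle inhibitor, was at 149, 217 and 172 FPKM in cKO libraries and 114, 112 and 121 FPKM in control libraries (log2 change 0.61, adjusted p = 0.019, lost without control 1 or control 2 at 0.070 and 0.081, and 0.0088 to 0.087 over all alternatives). Upp1, an enzyme of uridine breakdown, was at 0.942, 0.867 and 0.866 FPKM in cKO and 2.01, 1.84 and 2.17 FPKM in control (log2 change -0.85, adjusted p = 0.0062). The snoRNA host genes Gas5, Snhg1, Snhg12 and Zfas1, whose spliced RNAs are degraded by the pathway, did not pass. Gas5 was at 139, 129 and 152 FPKM in cKO libraries and 143, 150 and 153 FPKM in control libraries. Atf4 and Ddit3, stress-response factors with upstream reading frames, were at 131 ± 11.7 and 17 ± 0.928 FPKM in cKO and 126 ± 2.02 and 16.2 ± 0.445 FPKM in control.

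A last list held 7 ribosomal and translation genes, 5 of them with NMD transcripts, 7 in all and all tested. None passed (0 by limma, 2 at an unadjusted p under 0.05), and none of the genes passed at the gene level either (4 at an unadjusted p under 0.05). Rpl10a, of the large subunit, had its NMD transcript at 25.1, 38.2 and 75.7 FPKM in cKO libraries and 24.7, 19.2 and 11.5 FPKM in control libraries, without overlap (adjusted p = 0.312). Eif4a2, a translation initiation helicase, had its main NMD transcript at 30.2, 14.7 and 18.3 FPKM in cKO and 10.4, 10.2 and 13.9 FPKM in control, also without overlap (adjusted p = 0.283). Rpl12 was at 31.9, 41.5 and 33.3 FPKM in cKO and 39.7, 52.4 and 38.0 FPKM in control, with overlap.

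The authors' deposited table marks 160 of the 4648 NMD transcripts as significant, 90 higher (1.94%) and 70 lower (1.51%) in cKO, where it marks 1.05% of all 85882 transcripts as higher and 1.14% as lower. Of the 160, 103 were listed at 0 in all libraries of a group, 46 reached the level tested here, and in 82 the libraries of the groups overlapped. Both transcripts that passed limma, of Ppat and Alg3, are among the 160 in the authors' deposited table, and 30 had an unadjusted p under 0.05 in limma. The Lars2 and Rbm3 transcripts present in a single library are among those marked, with q-values of 8.66e-12 and 2.26e-09 in the authors' deposited table. Ndufb8 and Odc1 are marked as well, with q-values of 1.53e-05 and 0.00044 in the authors' deposited table. The NMD transcript of Itgb1 is not marked in the authors' deposited table, at a q-value of 0.231 there. Those of Ftl1 (q-value 0.00016, fold 1.41) and Dpagt1 (q-value 3.6e-06, fold 1.93) are not marked either. Nor are those of Zfp207 (q-values 0.0039 and 0.084, folds 0.764 and 0.519). The mark in the authors' deposited table thus does not follow the q-value alone.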

How the data were processed

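RNA of 3 cKO and 3 control libraries was compared, grouped by the sample titles. Values are FPKM per transcript, computed by the authors, per the file headers. The deposited fold is a ratio of group means, given also as its log2, and the test behind the deposited p-value and q-value is not named in a header. The submitters' processing notes name mm10. Aligner and quantifier: not given in the sources used here. Reads were not recovered from low values (6.94 to 33.6% lay within 2% of a whole multiple), so depth is unknown. Transcripts, sums per gene and class, genes, and log2((class + 0.5)/(protein_coding + 0.5)) ratios were tested with limma 3.58.1 (R 4.3.3, trend, 2-sided, no covariates) on log2(FPKM + 0.5) where the mean was at least 0.5 FPKM, with Benjamini-Hochberg adjustment over each whole table at 0.05. Every adjusted p outside the authors' table is limma's. The test was also checked on simulated data. The outcome is not given here, so nothing about transcripts that jump within a group follows from that check. Stop codons and sequences came from GENCODE M21. Named were transcripts past the test, the smallest ratio p-values, the 10 highest means, list members with an NMD transcript of at least 1 FPKM, and the UPF and SMG genes, of which 1 is not reported here. Members and lists were chosen with earlier results of these data known. Alternatives were pseudocounts of 0.1 and 1 FPKM, a mean of at least 1 FPKM or no filter, other scalings, each library left out and a replicate block. Python 3.11.15, pandas 2.3.3, NumPy 2.4.6, SciPy 1.17.1 and Matplotlib 3.10.9 were used.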

Additional observations from a re-analysis of the deposited data

How the results depend on the processing

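The count of 2 NMD transcripts past the test was 1 at a mean of at least 1 FPKM and 1 without a filter, 2 to 4 with 1 library left out, and 0 with the replicate block. The 1 ratio was 0 with a pseudocount of 1 FPKM, 4 without a filter, 0 to 3 with 1 library left out, and 0 with the block. The 1 factor gene was 0 without a filter and 0 to 1 with 1 library left out. The 11 summed NMD levels were 4 without a filter, 9 to 14 with 1 library left out and 2 with the block. The median log2 ratio change was 0.0321 with a pseudocount of 0.1 FPKM. The share difference stayed positive throughout. Same-numbered libraries did not deviate together (correlations -0.0023, -0.0074 and -0.030), so the numbers were not taken to pair samples, and no sample pairing stands behind the block. Log2 changes that turned sign under median-of-ratios scaling were -0.0167 for Acin1, -0.0285 for Smg1, -0.0329 for Upf3b and -0.00921 for Smg6, and under quantile normalization -0.0189 for Rps9, -0.0436 for Hnrnpl, -0.0384 for Acin1, -0.034 for Smg1 and -0.027 for Upf3b. With 1 library left out, those that turned sign ran from -0.928 to 2.61 for Anxa1, -0.0122 to 0.431 for Hnrnpa1, -0.294 to 0.54 for Hnrnpl, -3.92 to 0.133 for Nedd4, -0.17 to 0.68 for Rbm39, -0.121 to 0.101 for Rpl13a, -0.00972 to 1.26 for Rpl3, -0.105 to 0.297 for Rps9, -0.0749 to 0.347 for Srsf2, -0.391 to 0.524 for Srsf3, -0.0982 to 0.27 for Srsf4, -0.309 to 0.314 for Srsf7, -1.16 to 0.636 for Tia1, -0.946 to 0.159 for Tial1 and -0.196 to 0.43 for U2af1 among transcripts, and from -0.119 to 0.0204 for Nbas, -0.0728 to 0.00734 for Pnrc2, -0.0739 to 0.181 for Smg1, -0.0365 to 0.117 for Smg6, -0.0292 to 0.135 for Upf1, -0.0917 to 0.0365 for Upf2 and -0.0324 to 0.0809 for Upf3b among genes. None of these had been called, and the cause was not tested.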
